A study of Homo sapiens with 6 samples.

Results

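The genes described here encode myeloperoxidase and its companions in the azurophil granule, 7 of the 60612 gene IDs counted in each library. They were chosen by name, as a known group, with earlier results of these data in view: MPO, the serine protease family genes ELANE, PRTN3, AZU1 and CTSG, the lysozyme gene LYZ and SRGN. RNA was measured in 6 libraries of KO52, an acute myeloid leukaemia (AML) cell line, with 2 libraries in each of 3 groups. All cells carried CEBPA mutations on both alleles and a doxycycline-inducible lentiviral vector. The insert was a dominant negative form of C/EBP (dnCEBP) or of FOS (dnFOS), or was missing (empty vector, EV), and GFP served as the marker in all groups. The study treated the cells with doxycycline and sorted them for GFP before RNA was sequenced. The question was how the C/EBP and AP-1 families support gene expression in AML with double mutant CEBPA. The cells of each group were 1 line, and the labels do not say whether replicates were separate cultures, so the p-values measure the spread between these libraries, which may be technical.

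Azurophil granules are the first granules that a maturing neutrophil makes, at the promyelocyte stage. They store antimicrobial proteins: a heme peroxidase, serine proteases, lysozyme and lysosomal hydrolases, packed on the chondroitin sulphate chains of serglycin. The genes of MPO and the serine proteases are classic targets of C/EBP factors, PU.1, RUNX1 and MYB, and are silenced again before the specific granules form. LYZ and SRGN are expressed more widely among blood cells. A dominant negative peptide of the C/EBP or FOS type pairs with the leucine zipper of its partners and keeps them off DNA.

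AZU1, PRTN3 and ELANE lie side by side on chromosome 19, all on the plus strand. In GENCODE 29 on GRCh38 they span 31151 bases, with AZU1 at chr19:825097-832018, PRTN3 at chr19:840960-848175 and ELANE at chr19:851014-856247. Gaps of 8941 and 2838 bases separate them. CTSG is on the minus strand at chr14:24573522-24576260, and MPO on the minus strand at chr17:58269856-58280935. LYZ is at chr12:69348341-69354234 and SRGN at chr10:69088106-69104811, both on the plus strand. Promoter sequences of 3 of the 7 genes are shown because C/EBP binding near the start site is a known route of control for this gene class. They are the 150 bases before the RefSeq transcription start on GRCh38.p14, which for all 3 lies inside the GENCODE gene, at chr19:827687-827836 for AZU1 and chr19:840849-840998 for PRTN3, both plus strand, and chr14:24576251-24576400, minus strand, for CTSG. Each is written 5′ to 3′ on the gene's strand, and capitals mark a match to the C/EBP motif TTGCNNAA on either strand.
AZU1: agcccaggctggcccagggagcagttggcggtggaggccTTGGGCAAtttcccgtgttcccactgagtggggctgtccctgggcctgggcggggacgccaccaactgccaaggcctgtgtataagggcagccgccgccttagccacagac
PRTN3: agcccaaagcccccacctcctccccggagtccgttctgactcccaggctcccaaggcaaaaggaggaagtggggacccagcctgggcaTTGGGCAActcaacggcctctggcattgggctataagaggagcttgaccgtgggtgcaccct
CTSG: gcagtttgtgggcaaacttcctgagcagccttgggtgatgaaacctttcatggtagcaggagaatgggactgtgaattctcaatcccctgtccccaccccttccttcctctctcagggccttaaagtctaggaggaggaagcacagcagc

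The same 8 letters, TTGGGCAA, occurred in both promoters, at -111 to -104 in AZU1 and at -62 to -55 in PRTN3, counted from the start site. Over the 250 bases before the start, 9.05% of 35116 RefSeq promoters held a C/EBP match, and the CTSG promoter held none. PRTN3 also held the PU.1 motif GAGGAAGT at -88 to -81, which 2.17% of promoters held. Matches to the MYB motif AACNGNC were found in all 3 windows of 250 bases, and 26.9% of promoters held one. No match to the AP-1 motif TGANTCA, the composite C/EBP:AP-1 motif TGANGCAA or the RUNX motif TGNGGT was found in these 3 windows. These motifs were searched on both strands and stood in 6.57%, 2.77% and 37.7% of promoters, respectively. A match is a run of letters and not a measured site.

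Library totals ran from 9862994 to 27663179 counts, and the dnFOS libraries were the shallowest, with 14583615 and 9862994. A count of 3, the limit below which a level cannot be told from none, corresponded to 0.111 to 0.29 CPM, which are counts per 1000000 counts of the library after its size was scaled by the TMM method. Of 8 myeloid blast markers, 7 were tested. In EV the stem and progenitor antigen CD34 was at 134 CPM, the leukocyte antigen PTPRC at 400 CPM and CD33 at 61.4 CPM, and FLT3 had at most 4 counts in a library. With dnCEBP ANPEP was called lower, where 0.448% of all tested genes were. With dnFOS ANPEP, PTPRC and CD99 were called lower, where 7.76% were. CD34, KIT, CD33 and CD38 were not called against EV with either peptide, at log2 fold changes of -0.22, -0.02, -0.01 and -0.14 with dnFOS. PTPRC was at 317 CPM with dnFOS and at 491 CPM, not called, with dnCEBP. The dnFOS libraries summed to 737 and 730 CPM over the list, beside 908 to 984 CPM in the other 4. Monocyte markers summed to 5.34 to 7.97 CPM over the 6 libraries, and CD14 had 0 to 6 counts. In bulk RNA, fewer cells of a type and less RNA per cell cannot be told apart.

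The 7 granule genes fell into an abundant and a scarce set in KO52. Per kilobase of exon, the EV level was highest for SRGN, at 198 CPM per kb, above 99.0% of 15222 tested genes with a known length. MPO followed with 61.4 CPM per kb, above 97.4% of these genes, and LYZ with 43.8 CPM per kb, above 96.4%. CTSG was near the middle, with 3.23 CPM per kb (above 53.0%). AZU1, PRTN3 and ELANE were low, with 0.926, 0.696 and 0.228 CPM per kb. MPO, LYZ and SRGN together held 98.68% to 99.39% of the counts of the 7 genes in every library, and the neutrophil elastase gene was barely detected. This split holds for the 7 chosen genes only. PRSS57, from the list of other azurophil genes described below, was at 31.05 CPM in EV. It was not called with dnCEBP (log2 fold change -0.48, edgeR adjusted p = 0.738) or dnFOS (-0.50, edgeR adjusted p = 0.537).

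MPO makes the heme enzyme that turns hydrogen peroxide and chloride into hypochlorous acid, and its mRNA or protein is a standard sign of myeloid lineage in leukaemia. It was at 239 and 194 CPM in the EV libraries, at 63.5 and 53.0 CPM with dnCEBP and at 153 and 140 CPM with dnFOS. The 3 groups did not overlap, and both dnFOS libraries stood between EV and dnCEBP. MPO fell to 26.9% of its EV mean with dnCEBP (log2 fold change -1.89 ± 0.10 SE, n = 2 against 2, edgeR quasi-likelihood test, adjusted p = 5.03e-13). With dnFOS it fell to 67.6% (-0.56 ± 0.10, edgeR adjusted p = 0.000273), a change that was smaller but still called once a trend in GC content and length was removed (-0.37). The difference between the peptides was tested directly, and MPO was 2.51-fold higher with dnFOS than with dnCEBP (1.33 ± 0.10, 95% interval 1.12 to 1.54, edgeR adjusted p = 2.1e-10).

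**Figure D1:**
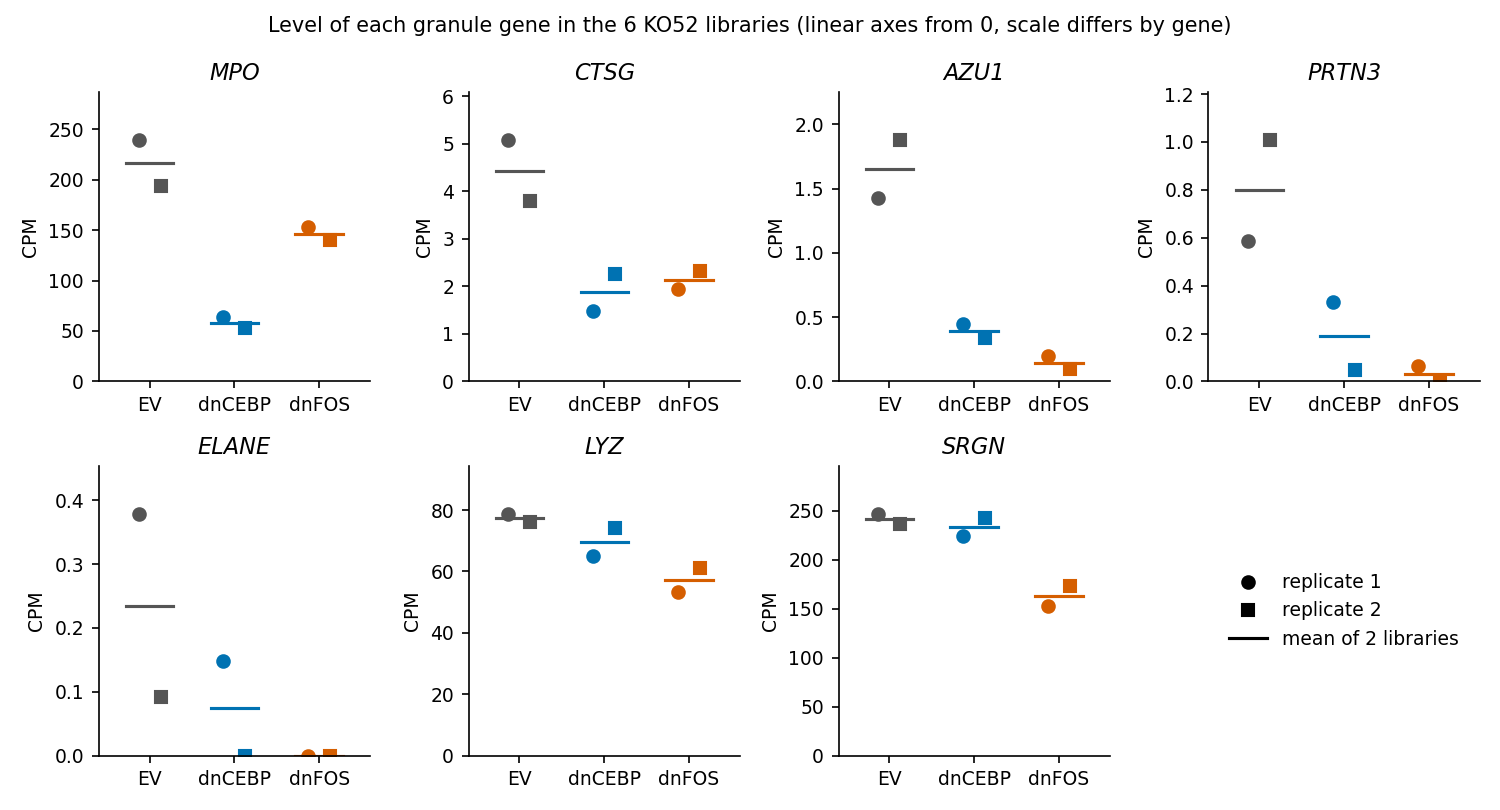
CPM of each granule gene in every library on a linear axis from 0, with 1 panel per gene, circles for replicate 1, squares for replicate 2 and a line at the group mean. MPO was lowest in the dnCEBP libraries (63.5 and 53.0 CPM), whereas SRGN was lowest in the dnFOS libraries (153 and 173 CPM) and ELANE, PRTN3 and AZU1 were within a few counts of 0 with dnFOS.

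SRGN encodes serglycin, the proteoglycan core on which granule proteases and MPO are packed. Its levels were 246 and 237 CPM in EV, 225 and 243 CPM with dnCEBP, and 153 and 173 CPM with dnFOS. The dnCEBP libraries overlapped EV, while both dnFOS libraries lay below the other 4. SRGN fell with dnFOS to 67.7% of the EV mean (log2 fold change -0.57 ± 0.09 SE, edgeR adjusted p = 4.83e-05). With dnCEBP the log2 fold change was -0.05 ± 0.09 (95% interval -0.22 to 0.13, edgeR adjusted p = 0.89), an interval that does not reach the size of the dnFOS change. The direct comparison gave a level 1.43-fold lower with dnFOS than with dnCEBP (-0.52 ± 0.09, edgeR adjusted p = 0.000102). The order of the 2 peptides was thus the opposite of that for MPO, and each difference passed its own test.

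LYZ encodes lysozyme, which cuts the peptidoglycan of bacterial walls and is stored in azurophil and specific granules alike. It was at 78.5 and 76.1 CPM in EV, at 64.9 and 74.3 CPM with dnCEBP and at 53.2 and 61.0 CPM with dnFOS. The groups did not overlap, although dnCEBP replicate 2 was close to EV. LYZ fell with dnFOS to 73.8% of the EV mean (log2 fold change -0.44 ± 0.10 SE, edgeR adjusted p = 0.00233). With dnCEBP it was not called (-0.15 ± 0.09, 95% interval -0.35 to 0.04, edgeR adjusted p = 0.557). Between the peptides it was lower with dnFOS by -0.29 ± 0.10 (edgeR adjusted p = 0.044), a call that was lost without dnCEBP replicate 2 (-0.19, adjusted p = 0.35), without dnFOS replicate 1 (-0.19, adjusted p = 0.309), without EV replicate 1 (adjusted p = 0.056) or EV replicate 2 (adjusted p = 0.0538), and in DESeq2 (adjusted p = 0.0689) and limma-voom (adjusted p = 0.0698). An antisense gene, AC020656.1, shares 599 exon bases with LYZ and had at most 2 counts in a library, so if reads were counted without strand its own transcripts could not be told from those of LYZ.

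CTSG encodes cathepsin G, a chymotrypsin-like serine protease. Its counts were 121 and 83 in EV, 40 and 47 with dnCEBP, and 30 and 24 with dnFOS, or 5.08 and 3.80, 1.48 and 2.27, and 1.95 and 2.32 CPM. Both peptide groups lay below EV and overlapped each other. CTSG fell with dnCEBP (log2 fold change -1.26 ± 0.30 SE, edgeR adjusted p = 0.0248) and with dnFOS (-1.07 ± 0.32, edgeR adjusted p = 0.0204). The difference between them was 0.19 ± 0.34 (95% interval -0.51 to 0.89, edgeR adjusted p = 0.775). The call with dnCEBP was lost without dnCEBP replicate 1 (-0.97, adjusted p = 0.181), dnCEBP replicate 2 (-1.58, adjusted p = 0.0723) or EV replicate 1 (-1.04, adjusted p = 0.284). The call with dnFOS was lost without dnFOS replicate 1 (-0.94, adjusted p = 0.124), dnFOS replicate 2 (-1.18, adjusted p = 0.0618) or EV replicate 1 (-0.84, adjusted p = 0.201). In DESeq2 the adjusted p was 0.10 and 0.0553.

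AZU1 encodes azurocidin, an antibacterial member of the protease family without enzyme activity. It had 34 and 41 counts in EV, 12 and 7 with dnCEBP, and 3 and 1 with dnFOS, which is 1.43 and 1.88, 0.444 and 0.338, and 0.195 and 0.0967 CPM. The groups did not overlap, and both dnFOS libraries were at or under the floor of 3 counts. The summed counts were 10.6-fold higher in EV than with dnFOS (exact binomial 95% interval 3.95 to 39.7) and 4.13-fold higher than with dnCEBP (2.47 to 7.23), intervals that cover counting error only. AZU1 passed the filter on low counts only through EV, which partly fixed the direction of its tests. In the fit across all genes the log2 fold change was -3.37 ± 0.74 SE with dnFOS (edgeR adjusted p = 0.00239, and 0.00044 with no such filter). With dnCEBP it was -2.05 ± 0.57 and not called (edgeR adjusted p = 0.08, and 0.0558 with no filter). That value passed the threshold with dnFOS left out of the fit (adjusted p = 0.0316) and without either dnFOS library (0.0378 and 0.0425), and did not without any 1 of the EV or dnCEBP libraries (0.137 to 0.596). The difference between the peptides was not called (-1.32 ± 0.86, edgeR adjusted p = 0.345).

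PRTN3 encodes proteinase 3, the main target of the autoantibodies in granulomatosis with polyangiitis. It had 14 and 22 counts in EV, 9 and 1 with dnCEBP, and 1 and 0 with dnFOS. Both EV libraries stood above the other 4, and the peptide groups overlapped. Summed counts were 20.3-fold higher in EV than with dnFOS (exact binomial 95% interval 3.41 to 822) and 3.76-fold higher than with dnCEBP (1.83 to 8.50). PRTN3 too passed the filter only through EV. In the fit the adjusted p of edgeR was 0.0206 with dnFOS (0.0141 with no filter) and 0.316 with dnCEBP. The log2 fold change with dnCEBP, -1.94, ran from -3.86 without dnCEBP replicate 1 to -1.24 without dnCEBP replicate 2. The dnFOS call did not hold without dnFOS replicate 1 (adjusted p = 0.0548), dnFOS replicate 2 (adjusted p = 0.143) or EV replicate 2 (adjusted p = 0.0915).

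ELANE encodes neutrophil elastase, whose germline mutations cause cyclic and severe congenital neutropenia. It had 9 and 2 counts in EV, 4 and 0 with dnCEBP, and 0 and 0 with dnFOS. It did not pass the filter on low counts, and with no filter the adjusted p of edgeR was 0.895 with dnCEBP and 0.32 with dnFOS. The EV counts exceeded the 0 of dnFOS by at least 1.41-fold at the lower limit of the exact binomial 95% interval, and those of dnCEBP by 2.87-fold, with an interval of 0.852 to 12.4 that includes equality. These intervals cover counting error only, and ELANE was not called. The 3 neighbours on chromosome 19 thus had the same order of mean levels, EV above dnCEBP above dnFOS, at levels where the order of the peptides was not resolved for any of them.

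**Figure D2:**
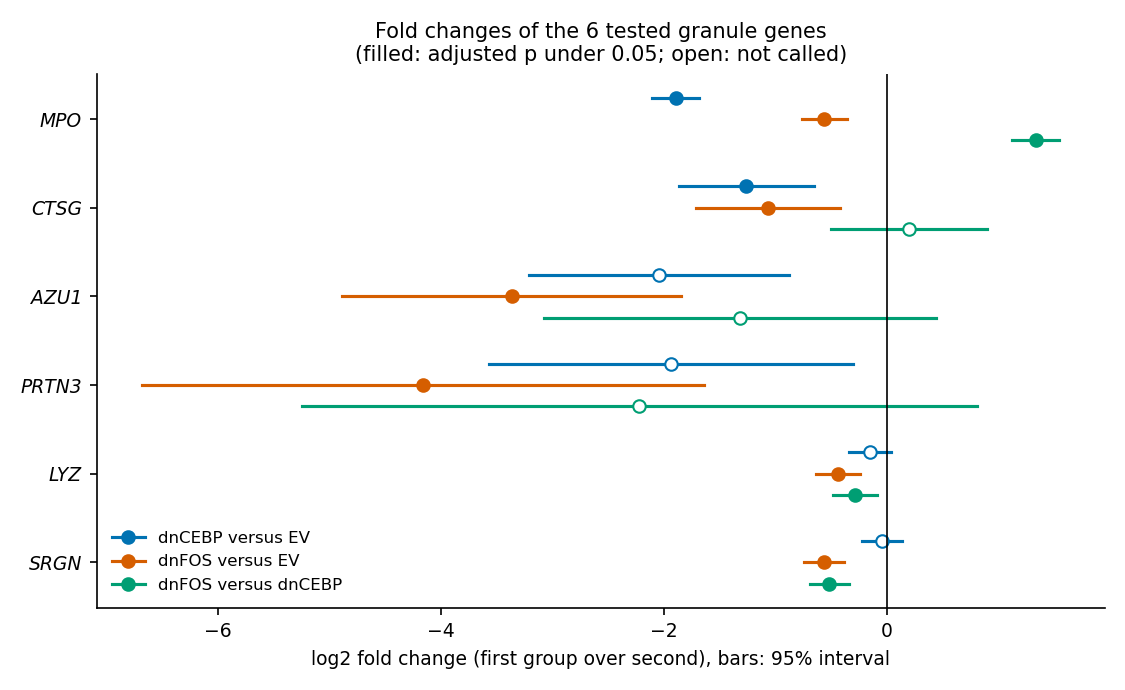
Log2 fold change of the 6 tested granule genes in the 3 comparisons, with bars for the 95% interval and filled points where the adjusted p was under 0.05. The intervals were narrow for the abundant MPO, LYZ and SRGN and wide for AZU1 and PRTN3, and the direct comparison lay above 0 for MPO (1.33) and below 0 for SRGN (-0.52) and LYZ (-0.29).

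Of the 7 genes, 6 passed the low-count filter, and AZU1 and PRTN3 passed it only through EV, so that a lower level elsewhere was partly fixed by the filter. With dnCEBP, MPO and CTSG were called lower and no member higher, where 0.448% of all 15395 tested genes were called lower and 0.624% higher. With dnFOS, all 6 tested members were called lower, where 7.76% of tested genes were lower and 7.24% higher. Without AZU1 and PRTN3 the counts were 2 of 4 with dnCEBP and 4 of 4 with dnFOS. Between the peptides, LYZ and SRGN were lower and MPO was higher with dnFOS, beside 7.84% and 6.83% of all genes. The 2 libraries of a peptide lay entirely below EV for 5 of the 6 tested members with dnCEBP and for 6 of 6 with dnFOS. Over all tested genes this was so for 20.9% and 28.4%, and 21.9% and 28.3% lay entirely above. For AZU1 and PRTN3 a place below EV was partly fixed by the filter. Leaving them out, the tested members entirely below EV were MPO, CTSG and LYZ with dnCEBP, and MPO, CTSG, LYZ and SRGN with dnFOS. Between the peptides, AZU1, LYZ and SRGN lay entirely lower and MPO entirely higher with dnFOS, beside 25.9% and 28.6% of tested genes. The comparisons with EV share the same EV libraries, so their calls are not independent of each other.

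The summed level of the 7 genes hid this difference. It was 572 and 513 CPM in EV, 356 and 372 CPM with dnCEBP, and 361 and 377 CPM with dnFOS. Both peptide groups lay below EV, and they overlapped each other. MPO supplied 41.8% and 37.8% of the sum in EV and 42.3% and 37.1% with dnFOS, but 17.8% and 14.2% with dnCEBP. Set against serglycin per kilobase of exon, MPO stood at 0.336 and 0.284 in EV and at 0.345 and 0.279 with dnFOS, and at 0.0977 and 0.0756 with dnCEBP. The ratio of MPO to LYZ per kilobase had the same layout, with 1.52 and 1.28 in EV, 1.44 and 1.15 with dnFOS and 0.489 and 0.357 with dnCEBP. These ratios were not corrected for a trend in GC content and length. With that trend removed, the log2 fold changes with dnFOS were -0.37 for MPO, -0.71 for SRGN and -0.52 for LYZ, so the likeness of dnFOS to EV depended on the setting. With dnCEBP they were -1.80, -0.18 and -0.26. MPO made up 88.8% of the drop in the summed mean level with dnCEBP. With dnFOS, SRGN made up 45.1% of it, MPO 40.5% and LYZ 11.7%. Per kilobase, where SRGN weighs more, the sums were 320 and 297, 241 and 258, and 201 and 218 CPM per kb, and dnFOS lay below dnCEBP.

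**Figure D3:**
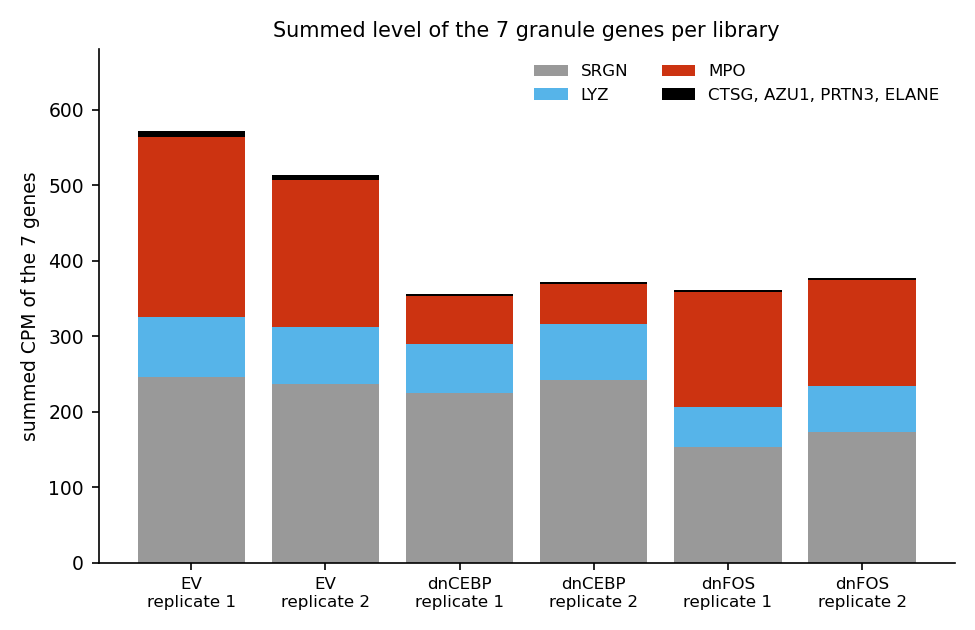
Stacked bars of the summed CPM of the 7 granule genes in each library, split into SRGN, LYZ, MPO and the 4 protease family genes together. The dnCEBP and dnFOS bars had similar heights (356 to 377 CPM), but MPO made up 14.2% to 17.8% of the sum with dnCEBP and 37.1% to 42.3% with dnFOS.

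Genes whose levels ran most like MPO over the 6 libraries were sought among tested genes with a mean of at least 1 CPM, by the distance between log2 CPM profiles centred on their means. The nearest were RAB7B, a small GTPase of endosome traffic, CDON, a cell surface receptor that binds hedgehog ligands, PRAM1, an adaptor of myeloid cells, ARMCX4 and C16orf74, with distances of 0.547 to 0.805. RAB7B was at 3.06 and 1.74 CPM in EV, 0.666 and 0.628 CPM with dnCEBP and 2.28 and 1.84 CPM with dnFOS. PRAM1 was at 1.72 and 2.66 CPM, 0.814 and 0.579 CPM, and 1.82 and 1.93 CPM in the same order. These genes were far scarcer than MPO, and the choice by likeness fixed their pattern. Among the other members with such a mean, CTSG came closest to MPO, at rank 74 of 12807 genes with a distance of 1.31. LYZ was at rank 5739 and SRGN at rank 9873. AZU1, PRTN3 and ELANE had lower means and were not ranked.

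**Figure D4:**
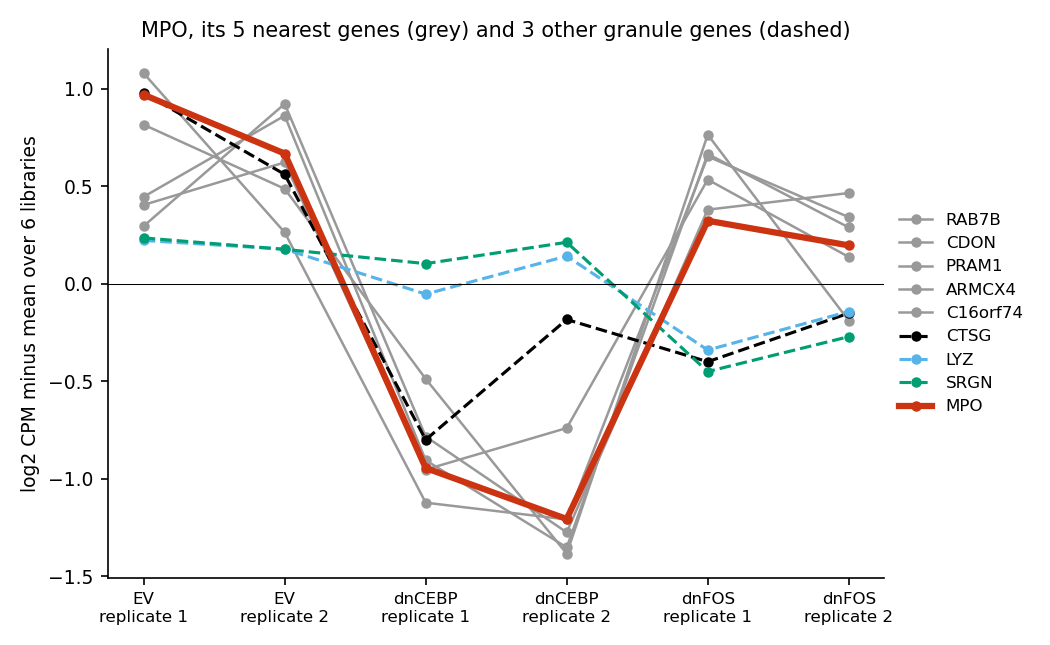
Log2 CPM of MPO, of the 5 genes nearest to it (grey) and of CTSG, LYZ and SRGN (dashed), each minus its mean over the 6 libraries; lines join the values of 1 gene and carry no order. MPO and its nearest genes dipped in both dnCEBP libraries, whereas LYZ and SRGN were lowest in both dnFOS libraries.

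Other azurophil proteins were examined as a list of 22 genes, of which 17 were tested. The shares of all tested genes called, to be set beside the counts of this and the following lists, were 0.448% lower and 0.624% higher with dnCEBP and 7.76% lower and 7.24% higher with dnFOS. With dnCEBP 1 of the 17 was called lower and none higher, and the median log2 fold change was -0.30, beside -0.0022 for all tested genes. With dnFOS 9 were lower and none higher (median -0.39, beside 0.0040). RNASE2, the eosinophil-derived neurotoxin, fell with dnCEBP from 8.98 ± 2.79 to 3.17 ± 1.48 CPM (mean ± SD, n = 2, log2 fold change -1.47, edgeR adjusted p = 0.00468) and with dnFOS to 4.49 ± 0.74 CPM (-0.98, edgeR adjusted p = 0.0179). Its close relative RNASE3, the eosinophil cationic protein, had 43 and 38 counts in EV, 9 and 11 with dnCEBP and none with dnFOS, at least 7.30-fold lower than in EV against the floor of 3 counts per library. It would not have passed the filter without EV, and 8 of the other 16 genes were called lower with dnFOS. Reads of such related genes may have been split, so both values are uncertain. The lysosomal protease gene CTSD also fell with dnFOS (-0.59, edgeR adjusted p = 0.00299). Several classic azurophil genes were silent: BPI had 1 count in all libraries together, and DEFA1, DEFA1B, DEFA3 and DEFA4 had none, though reads that fit several defensin copies may not have been counted.

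Genes of the later specific and gelatinase granules numbered 21, of which 10 were tested. None was called with dnCEBP, where 0.448% of all genes were called lower, and with dnFOS 4 were lower and none higher, where 7.76% were lower (median log2 fold change -0.87). TCN1, a vitamin B12 binder, was the abundant one of these, at 56.6 CPM in EV, 59.1 CPM with dnCEBP and 26.2 CPM with dnFOS (dnFOS against EV -1.11, edgeR adjusted p = 3.6e-08, and against dnCEBP -1.17, edgeR adjusted p = 7.43e-09). LTF, the lactoferrin gene, had 22 and 37 counts in EV, 30 and 23 with dnCEBP and 3 and 4 with dnFOS. MMP9, a gelatinase, had 30 and 24, 25 and 11, and 1 and 5 counts, and FCN1, a lectin, 43 and 15, 20 and 10, and 5 and 1. All 3 were called lower with dnFOS (edgeR adjusted p = 0.0214, 0.0419 and 0.0297), and for LTF and FCN1 no dnFOS library reached the level of the filter. MMP8, OLFM4, CRISP3 and PGLYRP1 had no counts.

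The proteins that activate or restrain granule proteases formed a list of 11 genes, 9 of them tested. CTSC, the dipeptidyl peptidase that activates the serine proteases, was at 157 CPM in EV, 149 CPM with dnCEBP and 166 CPM with dnFOS and was not called. The inhibitor SERPINB1, which blocks elastase, cathepsin G and proteinase 3, fell with dnFOS from 283 to 186 CPM (log2 fold change -0.60, edgeR adjusted p = 1.5e-05), as did CST7, a cystatin that acts on CTSC (-0.65, edgeR adjusted p = 1.53e-05), and SERPINB6 (-0.47, edgeR adjusted p = 0.0191). SERPINB10 had 25 and 15 counts in EV, 4 and 5 with dnCEBP and 1 in each dnFOS library (dnFOS against EV, edgeR adjusted p = 0.021), and it passed the filter only through EV. With dnCEBP, SERPINA1, the main plasma inhibitor of elastase, was the one called (-0.48, edgeR adjusted p = 0.0438). Medians over the list were -0.10 with dnCEBP and -0.39 with dnFOS.

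All 12 genes listed for the folding of MPO and the synthesis of its heme were tested. CALR, the chaperone calreticulin that binds the MPO precursor, was lower with dnCEBP (log2 fold change -0.37, edgeR adjusted p = 0.0153) and with dnFOS (-0.27, edgeR adjusted p = 0.0257). HSPA5, the chaperone BiP, was lower with dnCEBP (-0.48, edgeR adjusted p = 0.00678) and dnFOS (-0.63, edgeR adjusted p = 4.83e-05). ALAS1, the first enzyme of heme synthesis outside red cells, fell with dnFOS (-0.45, edgeR adjusted p = 0.00289), as did the disulphide isomerase PDIA3 (-0.28, edgeR adjusted p = 0.0215). The list counted 2 lower with dnCEBP and 4 lower with dnFOS, none higher in either, beside 0.448% and 7.76% of all tested genes, with medians of -0.04 and -0.09. Of 14 genes that build and sulphate the chondroitin chains of serglycin, 11 were tested and none was called with dnCEBP. With dnFOS CSGALNACT2, which starts the chain, was lower (-0.41, edgeR adjusted p = 0.0075) and XYLT1, which places the first sugar on the core protein, was higher (0.32, edgeR adjusted p = 0.0128), so the fall of SRGN was not matched by a list-wide fall (median -0.05).

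Among 12 known regulators of granule genes, 11 were tested. GFI1, a repressor needed for neutrophil development, was the one called with dnCEBP, from 52.2 to 37.0 CPM (log2 fold change -0.50, edgeR adjusted p = 0.00926). With dnFOS CEBPE, which drives the specific granule genes, fell from 4.15 to 1.56 CPM (-1.39, edgeR adjusted p = 0.00396). CEBPA (0.30, edgeR adjusted p = 0.0145), RUNX1 (0.51, edgeR adjusted p = 0.00287) and its partner CBFB (0.54, edgeR adjusted p = 0.000802) were higher with dnFOS. MYB was at 316 CPM in EV, 316.5 CPM with dnCEBP and 305 CPM with dnFOS and was not called (edgeR adjusted p = 0.991 and 0.751). The PU.1 gene SPI1 was not called with dnCEBP (-0.69, edgeR adjusted p = 0.0671) or dnFOS (-0.50, edgeR adjusted p = 0.0733). Medians over the list were -0.29 and -0.12.

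**Figure D5:**
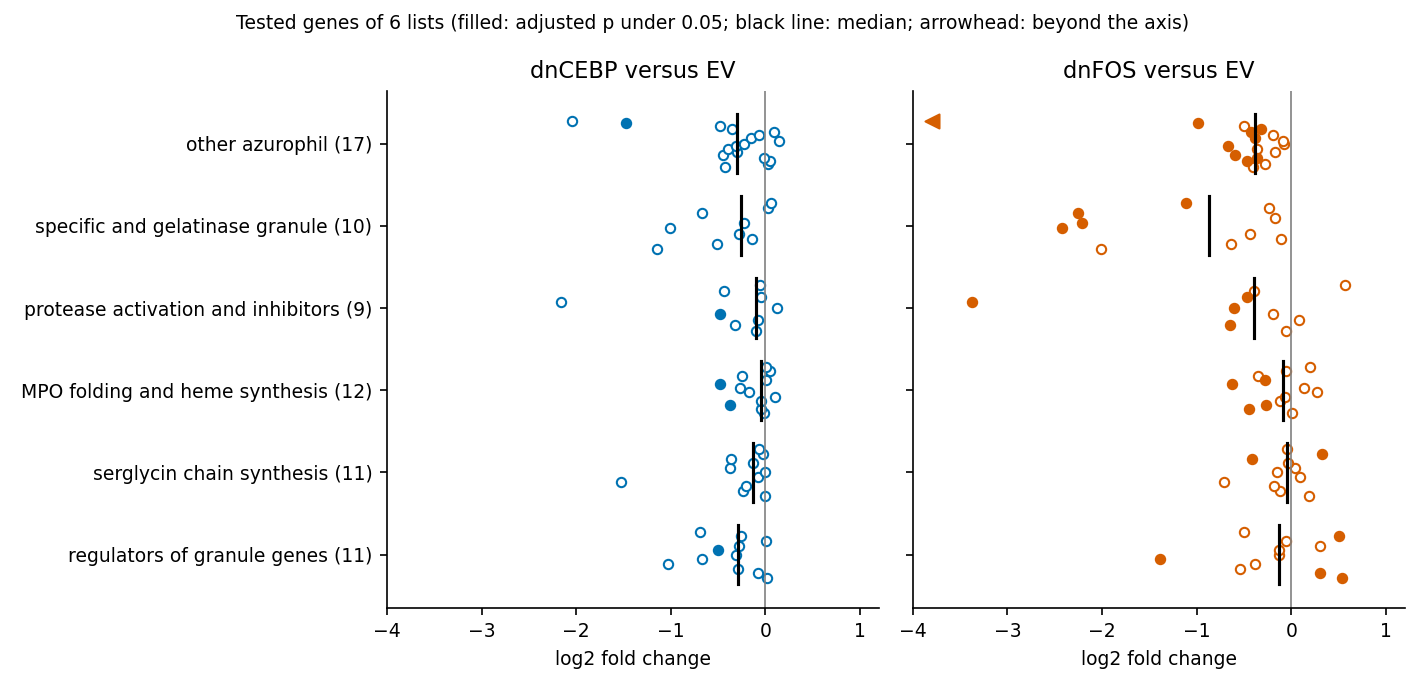
Log2 fold change of every tested gene in 6 lists related to the granule, with dnCEBP against EV on the left and dnFOS against EV on the right, filled where the adjusted p was under 0.05, with a black line at the list median. The arrowhead is RNASE3, which had no counts with dnFOS, and called genes of the azurophil and specific granule lists were lower with dnFOS without exception (9 and 4 genes).

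Markers of eosinophils, basophils and mast cells moved with the dnFOS libraries. They summed to 431 and 449 CPM in EV, 530 and 539 CPM with dnCEBP and 204 and 179 CPM with dnFOS. Of 8 genes 6 were tested, and with dnFOS CLC, HDC, CPA3, TPSB2 and TPSAB1 were called lower. With dnCEBP CLC was lower and CPA3 higher. HDC was at 336 CPM in EV and 147 CPM with dnFOS, EPX had 0 to 10 counts and PRG3 had 0 counts in both dnFOS libraries. RNASE2 and RNASE3, among the azurophil genes above, are also eosinophil granule genes. Of 11 erythroid and platelet markers 4 were tested. The platelet integrin gene ITGA2B was called lower with dnFOS too (187 to 105 CPM). PPBP, HBB and ALAS2 were not called against EV with either peptide, at log2 fold changes of 0.73, -0.73 and 0.11 with dnFOS. HBB had 6 to 67 counts in a library, while HBA2 and HBG1 were at 0 throughout. Of 8 T and B cell markers 4 were tested, and CD3D, at 119 CPM in EV, was called lower with dnFOS. CD79B, CD2 and CD79A, at 16.1, 1.55 and 1.53 CPM in EV, were not called against EV with either peptide. CD3E and CD3G had at most 7 counts in a library and MS4A1 none. The part of all these markers in the levels of the 7 granule genes was not tested.

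Tested genes within 100 kb were inspected to see whether the granule genes moved with their surroundings. Over all tested genes, 0.448% were called lower and 0.624% higher with dnCEBP, and 7.76% and 7.24% with dnFOS. Beside these shares, the neighbours were too few for their counts of calls to answer the question. Around AZU1, PRTN3 and ELANE, 6 of 15 neighbours were tested and none was called with dnCEBP. With dnFOS R3HDM4 (log2 fold change -0.49, edgeR adjusted p = 0.0165) and MED16 (-0.60, edgeR adjusted p = 0.0493) were lower, while PTBP1 was at -0.05 and CFD, the complement factor D gene next to ELANE, at -0.56 (edgeR adjusted p = 0.663). None of the 5 tested neighbours of MPO was called against EV with either peptide, nor were the 4 of SRGN or the 1 of CTSG. Of those of MPO, the antisense gene AC004687.1 was higher with dnFOS than with dnCEBP (0.72, edgeR adjusted p = 0.0243), in the direction of MPO, and stood at -0.53 with dnCEBP against EV (edgeR adjusted p = 0.287). Of the 2 tested neighbours of LYZ, the nearer was YEATS4, at 5469 bases. It was not called with dnFOS (0.235, edgeR adjusted p = 0.325). CPSF6, at 73983 bases, was higher with dnFOS (0.40, edgeR adjusted p = 0.00268), the opposite direction to LYZ itself.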

How the data were processed

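The authors deposited raw counts of reads per gene, 1 table per library and whole numbers throughout, with no normalization. Per the labels, total RNA was sequenced, and the submitters' processing notes name Trimmomatic, HISAT2, featureCounts, Subread and hg38. Versions, annotation release, use of strand and treatment of reads that match several genes are not given in the sources used here. Of 60612 gene IDs, 58394 matched GENCODE 29 on GRCh38. The sample titles gave the groups and the replicate numbers.

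The counts were fitted in R 4.3.3 with edgeR 4.0.16. The filterByExpr function (minimum count 10) left 15395 of 27870 genes with at least 1 count. All 6 libraries entered 1 quasi-likelihood fit of group means, with TMM scaling and robust dispersions (3 residual degrees of freedom), and the 3 contrasts were tested two-sided with Benjamini-Hochberg adjustment over all tested genes. A gene was called at an adjusted p under 0.05. Standard errors came from the log2 fold change and its F statistic, and CPM used scaled library sizes. Alternatives were other filters and scalings, DESeq2 1.42.0, limma-voom (limma 3.58.1), a GC content and length trend, fewer libraries and a replicate block. Sequencing depth set the floor of 3 counts, and count intervals (exact binomial, 95%, scipy 1.17.1) cover counting error only, since reads are not independent molecules. Promoters were matched by symbol in a RefSeq table (GRCh38.p14), which held 3 of the 7 genes, AZU1, PRTN3 and CTSG.

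The 7 genes and the lists were chosen with earlier results of these data known. Named genes were the 7 members, up to 4 called genes of each other list per comparison by size of change, and the 5 genes nearest to MPO. A few listed genes are not reported here by name. Genes named as not called, at 0 or as neighbours, and markers, were added after their values were seen.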

Additional observations from a re-analysis of the deposited data

How the results depend on the processing

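Of 276 values of the tested members under other settings, 252 kept their direction and their side of the threshold, 18 lost the call, 4 gained it and 2 changed sign. MPO was called in all 3 comparisons and SRGN with dnFOS under every setting run. After removal of a trend in GC content and length, MPO with dnFOS was at -0.37 and SRGN with dnFOS at -0.71. With dnCEBP, LYZ was then at -0.26 (edgeR adjusted p = 0.0701) and SRGN at -0.18 (edgeR adjusted p = 0.259). With dnCEBP, 2 members were called, against 1 in DESeq2 and 1 to 3 when 1 library was left out (1 without dnCEBP replicate 1, dnCEBP replicate 2 or EV replicate 1). With dnFOS, 6 were called, against 3 in DESeq2, which gave no adjusted p for AZU1 and PRTN3, 4 under a filter at a mean of 1 CPM, which left those 2 genes untested, and 4 to 6 when 1 library was left out. Between the peptides, 3 were called, and 2 to 3 when 1 library was left out. Without dnCEBP replicate 1, the difference of CTSG between peptides changed sign to -0.10 (range over single libraries left out -0.10 to 0.51) and that of SRGN with dnCEBP to 0.007 (range -0.10 to 0.007), both far from the threshold. Scaling by library totals alone put the median of all genes at 0.10 with dnFOS against EV and at 0.145 between the peptides, where LYZ was then at -0.17 (adjusted p = 0.24), or -0.31 relative to that median. Of all genes, 165 were called with dnCEBP, 297 with only the 2 groups compared, 283 without the GC content and length trend and 33 (without dnCEBP replicate 2) to 314 (without dnFOS replicate 2) when 1 library was left out. With dnFOS 2309 were called, 972 without dnFOS replicate 2 and 1059 without EV replicate 1. Between the peptides 2259 were called, 1182 without dnFOS replicate 2 and 1349 without dnCEBP replicate 1. Deviations of same-numbered replicates correlated at 0.017, 0.028 and 0.088 over all tested genes. Counting noise of scarce genes can hide a shared part, so these values do not decide whether the numbers pair the samples. The main fit used no pairing. With a replicate block, 3, 6 and 3 members were called in the 3 comparisons, and 488, 3172 and 3013 genes, and AZU1 with dnCEBP gained its call (adjusted p = 0.0395). The cause of these shifts was not tested. Depth limits AZU1, PRTN3 and ELANE, which were at or near the floor with dnFOS.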
